A study of Homo sapiens with 24 samples.

Results

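SGI-110 was added to rhabdomyosarcoma cells that were also given dasatinib, and the change in messenger RNA was read as combination minus dasatinib. Of the 24 cultures of the study, 12 had dasatinib or both drugs: 3 cultures of each treatment in each of 2 cell lines, called biological replicates in the labels. The deposited changes appear to come from 1 of the lines, and then from 6 of these cultures, as set out below. The lines were Rh30, from an alveolar rhabdomyosarcoma, and RD, from an embryonal one, and each is 1 established line. All cultures were treated for 5 days, and the labels give 0.5 µM for SGI-110. The other 12 cultures had DMSO alone or SGI-110 alone and stand for the same SGI-110 step without dasatinib, and the 2 steps share no library. The cultures were chosen by their labels, not by any measured value.

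SGI-110 (guadecitabine) is a dinucleotide that releases decitabine, a cytosine analogue that dividing cells build into DNA, where it traps DNA methyltransferases and leaves daughter strands with less CpG methylation. Genes silenced by promoter methylation, among them germline genes, cancer-testis antigens and endogenous retroviruses, are the classical genes to be reactivated, and an interferon-type response to double-stranded RNA is a known sequel. Dasatinib inhibits the SRC and ABL families and several receptor kinases that relay adhesion and growth factor signals. Rhabdomyosarcoma cells express the muscle factors MYOD1 and MYOG but do not complete muscle differentiation. In the authors' deposited tables, MYOD1 had a mean normalised count of 5182, MYOG one of 5684 and desmin (DES) one of 6849.

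The values come from 4 comparison tables of 29639 genes with no value per library. Levels per culture, depth per library and the direction in each replicate could therefore not be shown. All log2 values below were computed from the authors' deposited tables as the product of test statistic and standard error, and ± is 1 standard error. "Change on dasatinib" is combination minus dasatinib, and "change without dasatinib" is SGI-110 minus DMSO. The "difference of changes" is the first minus the second, which is at the same time the difference between the dasatinib steps with and without SGI-110. A gene rose or fell where a two-sided Wald test had a Benjamini-Hochberg adjusted p under 0.05 over all 29639 genes. No table says which cell line it is of. Since the standard errors are as large as 3 libraries per treatment would give, the changes are read as those of 1 unnamed line. The mean normalised count appears to cover other libraries too: 29 of the 3496 genes at the floor in all 4 groups had a mean of at least 10, up to 102 for LRRTM3, and it is not the level of any group. A group was taken as not measurable where its standard error reached 1.17 log2, that of 3 libraries at 0.5 counts each, and fold changes that involve such a group are left out. In bulk RNA, fewer cells of a kind and less RNA per cell cannot be told apart.

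Promoter sequences of 4 genes are shown because the gene groups they stand for carry the comparisons below. Each stretch is the 250 bases before the first start listed for the gene in RefSeq (GRCh38.p14), 5′ to 3′ on the strand of the gene. DAZL, a germ cell RNA-binding protein, had the smallest adjusted p among the genes not measurable with dasatinib and measurable in the combination. Its 28 CG pairs, the sites that DNA methyltransferases act on, are in capitals, and the stretch is chr3:16605424-16605673 on the minus strand. HSPA5 encodes the main chaperone of the endoplasmic reticulum, and the capitals mark its 1 match to the stress element ERSE (CCAAT, any 9 bases, CCACG; chr9:125241344-125241593, minus strand). CCNB2 encodes the mitotic cyclin B2, and the capitals mark 4 CCAAT boxes and 1 CHR element (TTTGAA, chr15:59104896-59105145, plus strand). ISG15 encodes a ubiquitin-like protein induced by interferon, and the capitals mark 2 overlapping matches to the interferon response element ISRE (GAAA, any 2 bases, GAAA; chr1:1013247-1013496, plus strand). Both strands were searched, and a match is a description of letters only.
DAZL: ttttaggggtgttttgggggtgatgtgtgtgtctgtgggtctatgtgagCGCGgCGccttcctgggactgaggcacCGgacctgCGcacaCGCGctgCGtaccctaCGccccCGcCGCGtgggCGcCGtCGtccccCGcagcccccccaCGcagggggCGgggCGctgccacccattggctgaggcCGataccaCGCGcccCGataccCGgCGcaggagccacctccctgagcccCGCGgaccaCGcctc
HSPA5: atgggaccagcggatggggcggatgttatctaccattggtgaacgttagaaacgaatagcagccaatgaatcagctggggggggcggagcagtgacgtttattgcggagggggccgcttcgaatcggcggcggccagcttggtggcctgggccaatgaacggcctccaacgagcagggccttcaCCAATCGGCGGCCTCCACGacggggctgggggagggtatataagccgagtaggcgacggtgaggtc
CCNB2: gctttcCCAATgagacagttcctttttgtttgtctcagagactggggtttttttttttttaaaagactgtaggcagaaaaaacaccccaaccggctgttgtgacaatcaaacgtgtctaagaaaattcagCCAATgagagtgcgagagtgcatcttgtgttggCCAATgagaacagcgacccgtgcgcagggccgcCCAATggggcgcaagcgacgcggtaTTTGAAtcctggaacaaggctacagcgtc
ISG15: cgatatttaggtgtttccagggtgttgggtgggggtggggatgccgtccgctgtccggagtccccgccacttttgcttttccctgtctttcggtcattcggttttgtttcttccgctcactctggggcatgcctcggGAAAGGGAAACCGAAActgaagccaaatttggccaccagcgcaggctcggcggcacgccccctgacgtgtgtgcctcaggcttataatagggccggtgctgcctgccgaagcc

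With dasatinib present, SGI-110 raised 7895 genes (26.6% of those tested) and lowered 4904 (16.5%), together 43.2%. The rises were the larger changes. Of the 5493 raised genes that were measurable in both groups, 2777 rose by at least 1 log2, with a median of 1.02. Of the 4889 lowered genes measurable in both, 675 fell by at least 1 log2, with a median of -0.49. A further 2396 raised genes were not measurable with dasatinib and measurable in the combination, and 2052 of these were not measurable in DMSO either. Among the 3847 genes with that pattern of measurability, 62.3% rose and 0 fell, a direction that the pattern itself fixes. The split between rises and falls differed with the level of the gene. At a mean normalised count of at least 100, 28.6% of 11759 genes rose and 36.4% fell, and below it 25.4% of 17880 rose and 3.51% fell. The counts of list members below are to be read beside these shares and those over all genes. Protein-coding genes rose in 34.9% of cases, lncRNAs in 27.2%, transcribed pseudogenes in 31.9% and other pseudogenes in 9.20%. On the X chromosome, home of many cancer-testis genes, 333 of 906 genes rose (36.8%). Chromosomes 19 and 20 were close to it, at 35.5% and 35.1%. Among genes with a mean of at least 100, the share was 32.9% of 413 on X and 28.4% of 10984 elsewhere.

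Of the 12 largest rises, 11 are given here, and the gene with the largest is not reported. NNAT had the next largest. It is an imprinted gene for neuronatin, a small membrane protein of developing neurons (chromosome 20, 37521250 to 37523690, GRCh38.p14). NNAT rose by 11.84 ± 0.65 on the log2 scale (adjusted p 3.7e-72) and by 12.01 ± 0.72 without dasatinib. Other genes at the top were the multi-copy cancer-testis genes SSX3 (10.70 ± 0.84), SSX1 (9.46 ± 0.55) and PAGE2B (10.06 ± 1.02), whose copies share reads and whose single values are uncertain. Several others act in the germline: TDRD12 (9.96 ± 1.02) and TDRD6 (9.70 ± 1.03) are tudor proteins of germ cell granules, and MEI1 (9.40 ± 1.03) acts in meiotic recombination. Of the remaining genes, OCIAD2 (10.76 ± 1.02) encodes a mitochondrial protein, GP6 (9.89 ± 0.55) the platelet collagen receptor, CTSZ (9.68 ± 1.02) cathepsin Z and TNFRSF10D (9.41 ± 0.73) a decoy receptor for TRAIL. Where the standard error is near 1 log2, the level with dasatinib alone was close to the floor.

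The largest falls were smaller and better measured. SORCS2, a sorting receptor for neurotrophins (chromosome 4, 7192538 to 7742827), fell by 2.85 ± 0.09 on dasatinib (adjusted p 3.9e-203) and by 1.82 ± 0.09 without it. KCNT1, a sodium-activated potassium channel (chromosome 9, 135702185 to 135795502), had a change of -3.39 ± 0.20, and the lncRNA OLMALINC one of -3.12 ± 0.14. A pair of amino acid genes followed: asparagine synthetase (ASNS) at -2.85 ± 0.16 and the cystine carrier SLC7A11 at -2.66 ± 0.21. CALCRL, a receptor for calcitonin gene-related peptide, changed by -2.22 ± 0.19. SNTB1, a syntrophin of the dystrophin complex, changed by -2.22 ± 0.08, and the presynaptic gene RIMS3 by -2.21 ± 0.13. The muscle gene TXLNB changed by -2.14 ± 0.27. ARHGAP28, which inactivates RhoA, fell by 2.08 ± 0.15 on dasatinib and by 0.57 ± 0.14 without it, and this difference of -1.51 ± 0.20 was called.

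**Figure D1:**
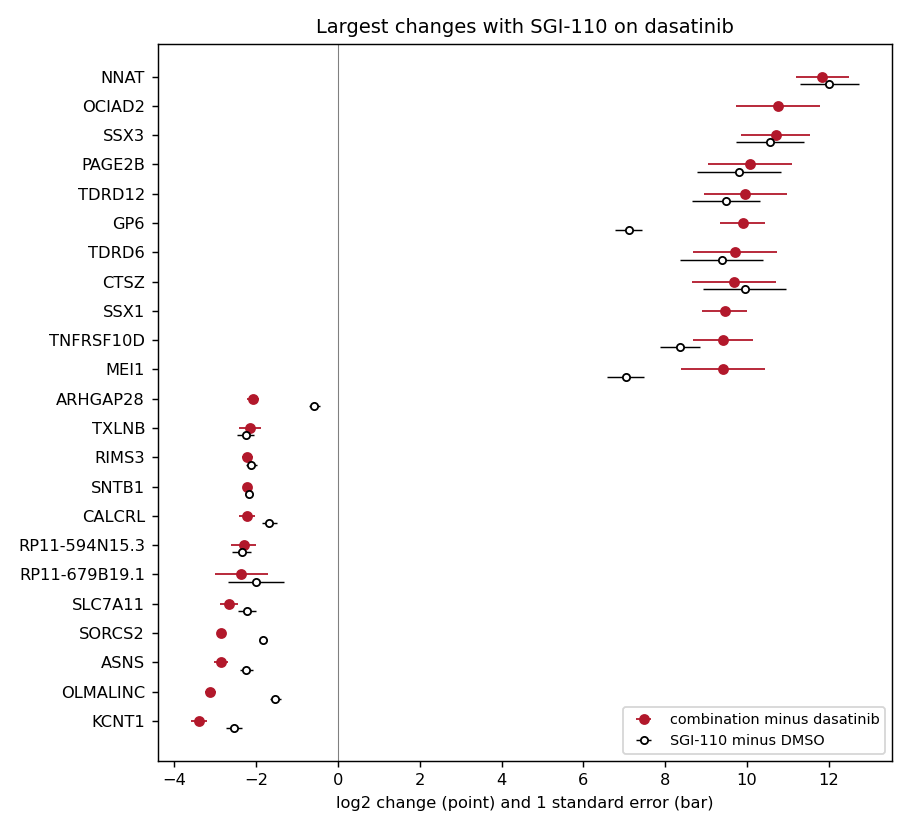
Log2 change (horizontal axis) of named genes among the largest rises and falls on dasatinib (filled, combination minus dasatinib) and without it (open, SGI-110 minus DMSO), with 1 standard error as bars. Open points are left out where DMSO was not measurable; the gene with the largest rise is not shown, the rises shown reach 11.84 for NNAT and the falls reach -3.39 for KCNT1, so the rises shown span a wider range than the falls.

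Germline genes, normally active in testis and ovary, rose almost throughout. Of 30 germline, meiosis and piRNA genes, 27 rose and 1 fell, with a median of 5.52 over 17 measurable members, against 0.05 over all 21214 genes measurable in both groups. The other 13 members were not measurable with dasatinib, and 12 of them rose, a direction that the floor fixes. STAG3 and REC8, subunits of the meiotic cohesin ring, rose by 8.71 ± 0.49 and 3.92 ± 0.19. TEX11, which acts in meiotic crossover, rose by 5.80 ± 0.20. PIWIL2, a partner protein of piRNAs, rose by 3.01 ± 0.11. TDRD1, a scaffold of the piRNA pathway, rose by 2.28 ± 0.08 on dasatinib and by 3.92 ± 0.10 without it, a difference of -1.64 ± 0.13. SOHLH1, a transcription factor of early germ cells, was the member that fell, by 0.28 ± 0.11 on the log2 scale, and it was no longer called after centring on the median gene. Of 29 cancer-testis antigens found, 27 rose and 0 fell; 26 were not measurable with dasatinib, and most belong to families (MAGE, GAGE, SSX, PAGE) that share reads. Both MAGEC1 and MAGEC2, antigens on X, were among the 10 smallest adjusted p-values of genes not measurable with dasatinib, at 4.2e-24 and 2.9e-23.

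The other genes of that group of 10 were DAZL (adjusted p 9.8e-29), TEX13C (1.8e-27), TKTL1 (9.3e-26), RP11-797H7.1 (4.7e-25), TUBA3D (8.3e-25), H19 (1.5e-24), TDRD9 (1.4e-21) and PLBD1 (4.1e-21). TKTL1 is a transketolase-like gene of the X chromosome and H19 an imprinted lncRNA. TDRD9 is a helicase that acts with piRNAs, PLBD1 a lysosomal phospholipase-like protein, and TUBA3D a testis tubulin with a near-identical copy, TUBA3E. None of these 10 genes was measurable with DMSO or with dasatinib, so no fold change is given. Imprinted genes moved in both directions, with 16 of 26 higher and 6 lower. The maternally expressed lncRNA MEG3 rose by 2.43 ± 0.13, while the growth factor gene IGF2 fell by 0.54 ± 0.07 and the zinc finger gene PEG3 by 0.42 ± 0.05. Of 27 tumour suppressors often silenced by methylation, 19 rose and 6 fell. RASSF5, a RAS effector, rose by 2.00 ± 0.11 and TIMP3, an inhibitor of matrix proteases, by 1.12 ± 0.07. For TIMP3, dasatinib alone was below DMSO (authors' Wald test, adjusted p 3.1e-54). Its combination was not called against DMSO (adjusted p 0.92) and was below SGI-110 alone (adjusted p 7.5e-60). DAPK1, a death-associated kinase, rose by 0.76 ± 0.04 on dasatinib and by 0.12 ± 0.05 without it, a difference of 0.64 ± 0.07.

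Promoter CG content differed between these classes. Over 14684 genes with a RefSeq promoter, the median number of CG pairs in the 250 bases was 19, and 75.0% of promoters had at least 10. The raised genes that were not measurable with dasatinib had a median of 14 (59.7% with at least 10; 1185 genes with a sequence). Genes raised by at least 1 log2 also had 14 (62.7%), while genes raised by less had 21 (84.4%), uncalled genes 19 (77.9%) and lowered genes 22 (87.8%). At a mean normalised count of 100 or more, the medians were 21 for raised, 22 for lowered and 21 for uncalled genes. The DAZL stretch printed above, with 28 CG pairs, lies at the upper end of its class, whose quartiles are 5 and 22.

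**Figure D2:**
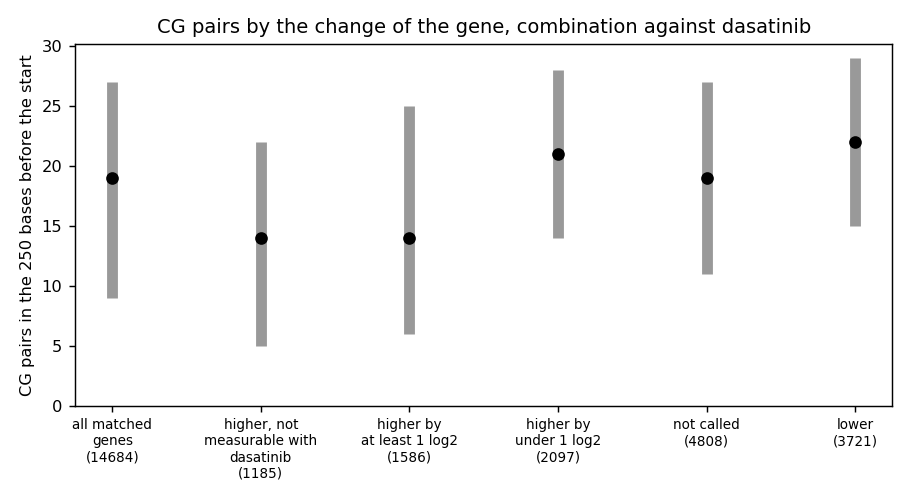
Number of CG pairs in the 250 bases before the gene start (vertical axis) for genes grouped by their change on dasatinib, with the number of genes in brackets; the dot is the median and the bar runs from the lower to the upper quartile. The medians are 14 for both classes of strongly raised genes and 22 for lowered genes.

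The DNA methylation machinery, on which SGI-110 acts, moved in both directions on dasatinib. Of 17 genes of this machinery, 5 rose and 4 fell, with a median of -0.07. DNMT1, the maintenance methyltransferase and main target of decitabine, changed by -0.08 ± 0.05 (not called) on dasatinib and fell by 0.32 ± 0.05 without it. Its partner UHRF1, which reads half-methylated DNA after replication, fell by 0.86 ± 0.06 on dasatinib and by 0.54 ± 0.06 without it. The de novo enzyme DNMT3B rose by 0.56 ± 0.09 on dasatinib and by 1.63 ± 0.09 without it. DNMT3A moved in opposite directions, with -0.34 ± 0.04 on dasatinib and 0.15 ± 0.04 without it. Dasatinib alone raised DNMT3A (authors' Wald test, adjusted p 9.0e-47). Its combination was still above DMSO (adjusted p 4.4e-11) and above SGI-110 alone (adjusted p 0.0018). The difference of changes was called for all 4 enzymes: it was 0.24 ± 0.07 for DNMT1, -0.32 ± 0.09 for UHRF1, -1.07 ± 0.13 for DNMT3B and -0.49 ± 0.06 for DNMT3A. Of 17 genes that take up, activate or break down decitabine or related nucleotides, 10 fell and 2 rose. Genes that favour and genes that oppose the drug are mixed in both counts. The nucleoside carrier SLC29A1 fell by 0.91 ± 0.06, deoxycytidine kinase (DCK), the activating enzyme, by 0.52 ± 0.09, and SAMHD1, which breaks down deoxynucleotide triphosphates, by 0.47 ± 0.07. Another carrier, SLC29A2, rose by 1.22 ± 0.13. Cytidine deaminase (CDA), which inactivates decitabine, was the other member called higher. It was not measurable with dasatinib, and its mean normalised count was only 2.3.

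Most of the SGI-110 response had the same direction with and without dasatinib. Without dasatinib, SGI-110 raised 8636 genes (29.1%) and lowered 4842 (16.3%), together 45.5%. Of the genes raised on dasatinib, 6186 also rose without it, which is 78.4% of the first list and 71.6% of the second. Of those lowered, 3262 were shared, 66.5% and 67.4% of the lists. Across the 11523 genes with a mean of 100 or more that were measurable in all 4 groups, Pearson's r between the 2 changes was 0.902 and Spearman's rho 0.729, a description across genes, which are not independent replicates. Among the 11047 of them with both changes under 2 log2 in size, r was 0.731. The spread of the changes was an SD of 0.943 on dasatinib and 1.01 without it.

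The difference of changes itself was called for 4321 genes (14.6%), 1804 with a higher change on dasatinib (6.09%) and 2517 with a lower one (8.49%). Of the 4288 called genes measurable in all 4 groups, 1502 kept their sign with a smaller change on dasatinib, 998 kept it with a larger change and 1788 had opposite signs. In 432 of the last group both changes were called: 259 genes rose without dasatinib and fell on it, and 173 did the reverse. The difference reached 1 log2 for 779 genes. Another 7892 genes were called in the same direction in both settings with no call for the difference, which does not show that their changes were equal. The median difference over 20386 genes was -0.02, and after centring on the median gene 2102 differences were called higher and 2187 lower.

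**Figure D3:**
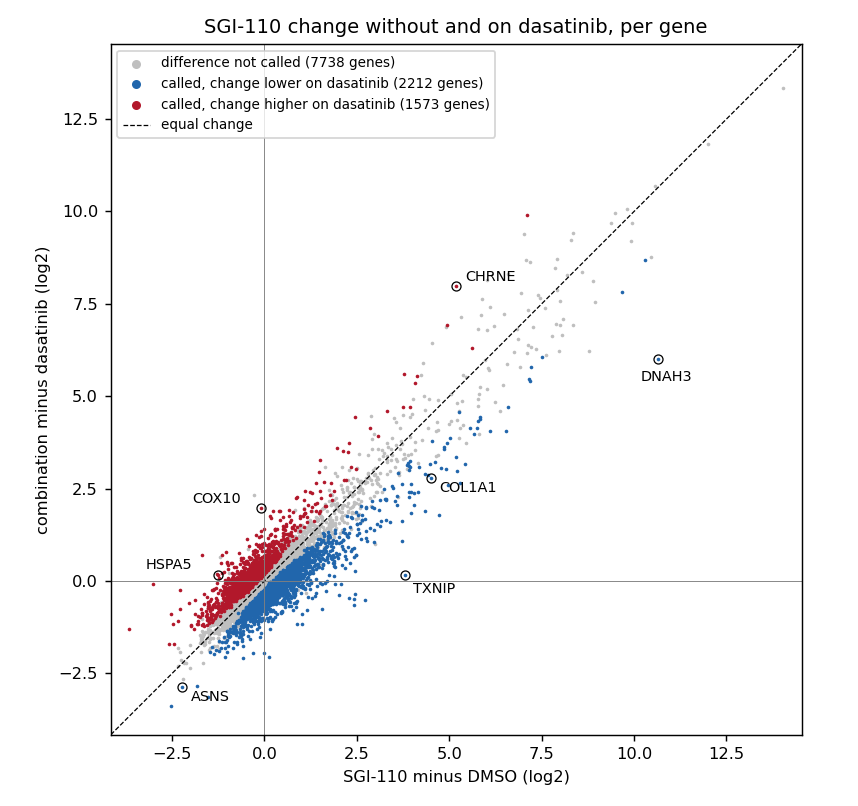
Log2 change with SGI-110 without dasatinib (horizontal axis) and on dasatinib (vertical axis) for the 11523 genes whose mean normalised count was 100 or more and that were measurable in all 4 groups; colour marks genes whose difference of changes was called and the dashed line marks equal changes. Most genes lie along the line, while TXNIP and DNAH3 lie below it and COX10, CHRNE and HSPA5 above it.

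The list of endoplasmic reticulum chaperones stood out by the uniformity of its difference. Its genes encode proteins that fold secreted and membrane proteins, proteins that act in the removal of misfolded ones, and the transcription factor XBP1. Such genes are induced when unfolded protein accumulates. Without dasatinib, 17 of 18 fell, with a median of -0.55, while on dasatinib 2 fell and 6 rose, with a median of 0.10. The difference was called higher for all 18, from 0.23 to 1.43, against 6.09% of all genes. HSPA5 fell by 1.25 ± 0.05 without dasatinib and had a change of 0.18 ± 0.05 on it, a difference of 1.43 ± 0.07 (adjusted p 1.8e-80). HYOU1, a partner chaperone of HSPA5, changed by -0.99 ± 0.07 and 0.09 ± 0.07. SEL1L, an adaptor for the removal of misfolded proteins, changed by -1.38 ± 0.11 and -0.25 ± 0.11. HERPUD1, which acts in the same removal, fell in both settings, by 1.56 ± 0.09 and 0.90 ± 0.09. The dasatinib step alone is given beside these: over the same 18 genes its median was -0.54, and for HSPA5 it was -1.34. CRELD2, a disulfide isomerase-like protein, rose by 1.01 ± 0.08 on dasatinib and did not pass the test without it (0.12 ± 0.08).

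The ERSE motif shown in the HSPA5 promoter was present in 6 of the 17 genes of the chaperone list with a sequence (35.3%), against 18 of 14543 promoters (0.124%). The 6 genes were HSPA5, HSP90B1, CALR, CANX, CRELD2 and XBP1. HSP90B1, a chaperone of the HSP90 family, had a difference of 0.67 ± 0.07. The lectin chaperones CALR and CANX had differences of 0.63 ± 0.09 and 0.60 ± 0.08.

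Genes of the ATF4 stress response, which supply amino acids when translation is curbed, fell on dasatinib in 20 of 26 cases and rose in 3, with a median of -1.004. The count without dasatinib was also 20 lower and 3 higher, with a median of -1.33. The factor ATF4 itself fell by 1.32 ± 0.07, and the serine synthesis enzyme PSAT1 by 1.78 ± 0.08. For ASNS the fall was larger on dasatinib, with a difference of -0.61 ± 0.23. The difference was called higher for 5 members and lower for 5, with a median of 0.00. The highest was that of the stress-induced gene NUPR1 (2.90 ± 0.64), which fell by 1.92 ± 0.36 without dasatinib and had 0.98 ± 0.53 on it, with a dasatinib step of -3.78. The pro-apoptotic factor DDIT3 and the pseudokinase TRIB3 were also among the 5 called higher. DDIT3 fell by 0.36 ± 0.07 on dasatinib and by 1.64 ± 0.07 without it. TRIB3 fell by 0.74 ± 0.20 and by 2.28 ± 0.20. The members that rose were ALDH1L2, a mitochondrial folate enzyme (1.75), ATF5, a related factor (0.80), and the secreted glycoprotein STC2 (0.33). Cytosolic ribosomal proteins fell in 24 of 32 cases on dasatinib (median -0.23) and in 31 of 32 without it (median -0.55). Their difference was called higher for 21 and lower for 0, with a median of 0.34. RPL22 fell most, by 0.99 ± 0.07, and RPL12 was the member that rose, by 0.39 ± 0.07.

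**Figure D4:**
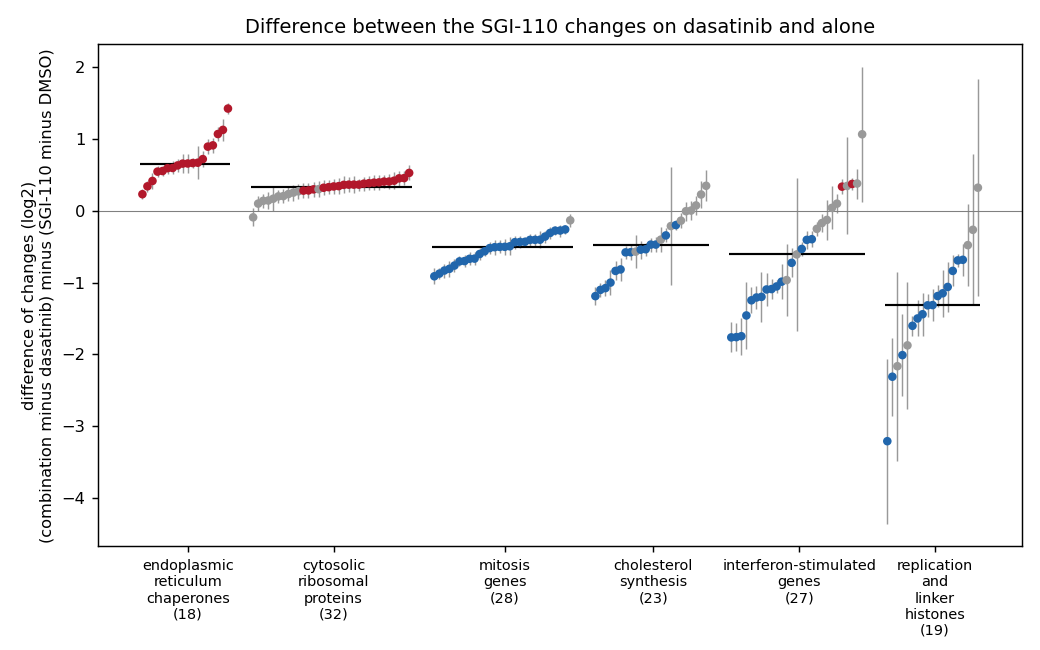
Difference of changes (vertical axis, log2) for the members of 6 gene lists that were measurable in all 4 groups, sorted by value, with 1 standard error as bars; red and blue points were called higher and lower, grey points were not called, and the black line is the list median. All 18 genes of the chaperone list lie above 0, while 27 of 28 mitosis genes are called below it.

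Mitosis genes showed the reverse. Their products build the spindle and drive division. Without dasatinib 21 of 28 rose and 2 fell, with a median of 0.35, and on dasatinib 7 rose and 14 fell, with a median of -0.18. The difference was called lower for 27 of 28, against 8.49% of all genes, and ranged from -0.91 to -0.13. The kinesin KIF20A rose by 1.05 ± 0.05 without dasatinib and by 0.18 ± 0.05 on it, a difference of -0.87 ± 0.07 (adjusted p 1.1e-28). CDC20, the activator of the anaphase-promoting complex, rose by 1.12 ± 0.08 and by 0.21 ± 0.08. AURKA, a spindle kinase, rose by 0.95 ± 0.06 and by 0.19 ± 0.06. For all 3 genes the rise on dasatinib was no longer called with a larger variance, the sum of the squared standard errors of both comparisons against DMSO. The checkpoint kinase BUB1 rose by 0.49 ± 0.05 without dasatinib and fell by 0.21 ± 0.05 on it. CCNB2, whose promoter is printed above, rose by 0.66 ± 0.07 without dasatinib and had a change of -0.01 ± 0.06 on it. KIF11, the spindle motor, fell by 0.53 ± 0.06 on dasatinib, the largest fall of the list. CENPF, a kinetochore protein, was the member without a call for the difference, at -0.13 ± 0.09. The dasatinib step alone had a median of 0.72 over the list.

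CCAAT boxes were present in 20 of 25 mitosis promoters (80%), against 5034 of 14543 (34.6%), and the CHR letters in 14 of 25 (56%), against 1383 (9.51%). DNA replication genes did not share the mitotic pattern: 24 of 31 fell on dasatinib and 25 without it, with medians of -0.33 and -0.37, and the difference was called for 6 higher and 3 lower. POLA1, the catalytic subunit of the primase complex polymerase, changed by -0.85, and the sliding clamp PCNA by -0.58. Among 18 CDK inhibitors and G1 cyclins, 4 rose and 11 fell. Cyclin D1 (CCND1) rose by 2.05 ± 0.06, cyclin D2 (CCND2) fell by 0.68 ± 0.05 and the retinoblastoma gene RB1 fell by 1.31 ± 0.09.

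Targets of p53 were split, with 9 of 28 higher and 11 lower on dasatinib, against 16 higher and 4 lower without it. The split on dasatinib was near that of all genes of similar level. At a mean normalised count of at least 100, which 26 of the 28 had, 28.6% of all genes rose and 36.4% fell. The cell cycle inhibitor CDKN1A rose by 0.63 ± 0.08 without dasatinib and had a change of 0.11 ± 0.08 on it, a difference of -0.53 ± 0.11. MDM2, which degrades p53, had 0.60 ± 0.07 and 0.07 ± 0.07. The death receptor FAS rose by 2.75 on dasatinib, while the BH3 protein BBC3 (PUMA) fell by 1.03. Among 28 apoptosis regulators, 11 rose and 6 fell. CASP10, an initiator caspase, rose by 2.56, CFLAR, which blocks caspase 8, by 0.94, and BCL2L1 (BCL-XL), a survival protein, fell by 0.73.

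Many interferon-stimulated genes, which restrict viruses, rose less on dasatinib than without it. Of 34, 25 rose and 3 fell on dasatinib, with a median of 0.64 over 28 measurable members, and 30 rose and 1 fell without it, with a median of 1.56. The difference was called lower for 15 and higher for 2. ISG15 rose by 1.18 ± 0.11 on dasatinib and by 2.27 ± 0.10 without it. IFI44, an antiviral protein, rose by 0.39 ± 0.07 and by 1.44 ± 0.06, a difference of -1.05 ± 0.09 (adjusted p 4.3e-27). IFIT1, which binds foreign RNA caps, rose by 1.87 ± 0.17 without dasatinib and had a change of 0.13 ± 0.20 on it. DDX60, a helicase of RNA sensing, rose by 1.30 ± 0.13 without dasatinib and had a change of -0.46 ± 0.14 on it, called lower but not with that larger variance. The group was not uniform. STAT2 and IFI16, a signal transducer and a DNA sensor, had larger rises on dasatinib, of 0.57 ± 0.06 and 0.89 ± 0.08, with differences of 0.38 ± 0.08 and 0.34 ± 0.11. For STAT2, dasatinib alone was below DMSO (authors' Wald test, adjusted p 1.9e-26). Its combination was not called against DMSO (adjusted p 0.51) and was below SGI-110 alone (adjusted p 4.6e-05). The dasatinib step of IFI16 was not called (adjusted p 0.82). IRF7, the interferon master factor, rose by 1.95 ± 0.15 on dasatinib and by 1.56 ± 0.14 without it, with no call for the difference. USP18, which removes ISG15, fell by 1.39 ± 0.15, and the ligase HERC5 by 0.50 ± 0.07. The ISRE letters printed for ISG15 were present in 16 of 26 promoters of the list (61.5%), against 375 of 14543 (2.58%).

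Genes of nucleic acid sensing rose in 7 of 14 cases and fell in 1. The retroviral envelope gene ERVW-1 (syncytin 1) rose by 8.68 ± 0.21 on dasatinib and by 10.29 ± 0.46 without it, a difference of -1.61 ± 0.51. It was one of 7 such genes found, of which 4 rose. Of 22 antigen presentation genes, which display peptides to T cells, 11 rose and 2 fell, and the difference was called higher for 7 and lower for 2. HLA-B, a class I heavy chain, rose by 1.13 ± 0.08 on dasatinib and by 0.52 ± 0.08 without it, and ERAP1, the peptidase that trims peptides for class I molecules, rose by 0.97 ± 0.10 on dasatinib and had -0.16 ± 0.10 without it. B2M, the shared light chain, rose by 0.50 ± 0.06. HLA genes are polymorphic and share reads, and the dasatinib step alone was -1.45 for HLA-B. The proteasome activator PSME1 fell by 0.91 ± 0.07 and the peptide carrier subunit TAP2 by 0.61 ± 0.08. NF-kB and inflammatory genes rose in 16 of 25 cases and fell in 0. NFKBIZ, a nuclear cofactor of NF-kB, rose by 1.39 ± 0.10 on dasatinib and by 0.29 ± 0.09 without it. Dasatinib alone lowered NFKBIZ (authors' Wald test, adjusted p 7.3e-27), and the combination was not called against SGI-110 alone (adjusted p 0.96). Interleukin 11 (IL11) rose by 1.14 ± 0.08 without dasatinib and had a change of -0.09 ± 0.07 on it.

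Replication and linker histone genes rose in 16 of 23 cases and fell in 3, with a median of 2.40 on dasatinib and 3.90 without it. The difference was called lower for 14 and higher for 0. The linker histone gene HIST1H1C rose by 4.14 ± 0.09 and by 5.74 ± 0.11, and HIST1H2BK by 3.75 ± 0.10 and by 4.93 ± 0.12. H1FX, another linker histone, fell by 0.84 ± 0.11 on dasatinib and rose by 0.48 ± 0.11 without it. The libraries were poly(A)-selected and most replication histone transcripts lack a poly(A) tail, so these values cover polyadenylated transcripts, and histone copies share reads.

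Among matrix genes and genes that respond to adhesion, calls of the difference were more often lower than higher. Collagen and matrix genes rose in 17 of 32 cases and fell in 8, against 23 and 7 without dasatinib, and the difference was called lower for 12 and higher for 3. COL1A1, the main fibrillar collagen chain, rose by 2.79 ± 0.07 on dasatinib and by 4.50 ± 0.07 without it, a difference of -1.71 ± 0.10 (adjusted p 4.7e-65). TGFBI, an adhesion protein of the matrix, rose by 3.78 ± 0.10 and by 4.52 ± 0.11, and thrombospondin 1 (THBS1) by 2.31 ± 0.06 and by 3.59 ± 0.07. Of 29 genes driven by YAP and TAZ, 16 rose, against 24 without dasatinib, and the difference was lower for 11 and higher for 2. Their classical members CTGF and CYR61, both matricellular proteins, had differences of -1.71 ± 0.25 and -1.54 ± 0.09. CTGF rose by 3.06 ± 0.15 on dasatinib and CYR61 by 0.90 ± 0.06. Targets of TGF-beta rose in 12 of 18 cases, with the inhibitory SMAD7 at 1.77. SRF targets and cytoskeleton genes rose in 9 of 23 cases and fell in 7, against 16 and 2.

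Immediate early genes, which respond to growth signals within minutes, had the lowest median difference after the histones (-0.64). On dasatinib 10 of 22 rose and 8 fell, and without it 16 rose and 1 fell. FOS, a subunit of AP-1, rose by 1.55 ± 0.11 without dasatinib and fell by 0.74 ± 0.10 on it, a difference of -2.29 ± 0.15 (adjusted p 2.2e-46). FOSL2, another subunit, rose by 0.31 ± 0.05 without dasatinib and fell by 0.55 ± 0.05 on it. JUNB, a further subunit, rose by 1.56 ± 0.14 without dasatinib and by 0.36 ± 0.14 on it. FOSL1 and the zinc finger factor KLF4 went against the majority, with differences of 0.73 ± 0.18 and 0.75 ± 0.14. FOSL1 rose by 1.81 ± 0.14 on dasatinib. The median of the dasatinib step alone was 0.24 for this list, and FOS had 1.89 and FOSL1 -0.94. MAPK feedback genes, which dampen the RAS pathway, rose in 12 of 20 cases and fell in 3, against 15 and 1.

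**Figure D5:**
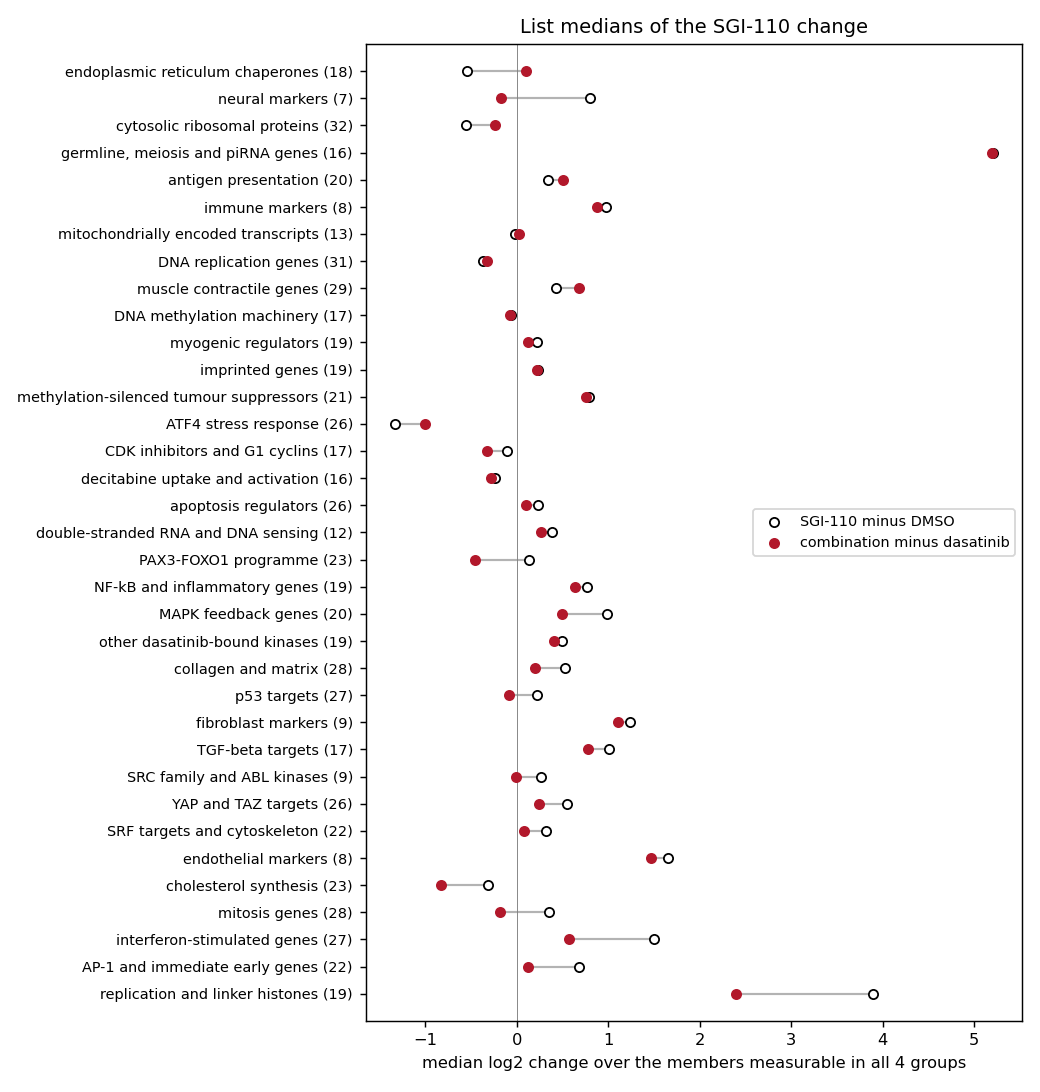
Median log2 change (horizontal axis) of each gene list over its members measurable in all 4 groups (number in brackets), without dasatinib (open) and on dasatinib (filled), sorted by the median difference of changes. The chaperone list lies at the top with medians of -0.55 and 0.10, and the histone list at the bottom with 3.90 and 2.40.

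Among the kinases that dasatinib binds, SRC and ABL family members rose in 6 of 12 cases and fell in 3. Over all genes 26.6% rose and 16.5% fell. SRC rose by 0.52 ± 0.08 and ABL2 by 0.23 ± 0.06, while LYN fell by 0.68 ± 0.12, FYN by 0.43 ± 0.07 and ABL1 by 0.28 ± 0.06. YES1 had a change of -0.06 ± 0.07. The difference of changes was called lower for 4 members, YES1 (-0.32 ± 0.10), FYN (-0.42 ± 0.11), LYN (-0.50 ± 0.17) and ABL2 (-0.36 ± 0.08), and higher for 0. Over all genes the difference was called lower for 8.49% and higher for 6.09%. Other kinases bound by dasatinib rose in 12 of 22 cases and fell in 2, and the platelet-derived growth factor receptor PDGFRB rose by 0.53. PDGFRB was below DMSO with dasatinib alone (authors' Wald test, adjusted p 1.9e-09) and stayed below it in the combination (adjusted p 0.007).

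Most cholesterol synthesis genes fell further on dasatinib than without it. Of 24, 18 fell and 4 rose on dasatinib, with a median of -0.83, and 16 fell and 4 rose without it, with a median of -0.31. The difference was called lower for 14 and higher for 0, and the dasatinib step alone had a median of 0.05. FDFT1, which makes squalene, fell by 1.25 ± 0.07 on dasatinib and had -0.15 ± 0.07 without it, a difference of -1.10 ± 0.10 (adjusted p 2.1e-26). The methyl sterol oxidase MSMO1 fell by 1.58 ± 0.10 and by 0.39 ± 0.08. DHCR7, the last enzyme of the pathway, fell by 1.65 ± 0.09 and by 0.82 ± 0.09. The controlling factor SREBF2 fell by 1.18 ± 0.07 and by 0.61 ± 0.07. Members that rose on dasatinib included EBP, a sterol isomerase (1.10 ± 0.09), CYP51A1, a demethylase (0.54 ± 0.16, not called with the larger variance), and INSIG1, which retains the controlling factors and was not measurable with dasatinib (adjusted p 3.6e-15).

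Muscle genes did not move as a block. Of 21 myogenic regulators, 10 rose and 6 fell. MYOD1 and MYOG had changes of 0.13 ± 0.12 and 0.02 ± 0.07 on dasatinib, and MYOG had risen by 0.46 ± 0.07 without it, a difference of -0.44 ± 0.09. The factor MEF2C fell by 0.81, and the inhibitors of differentiation ID1, ID2 and ID3 rose by 1.05, 1.37 and 1.36. Of 33 contractile genes, 17 rose and 6 fell, with a median of 0.72. The myosin light chain gene MYL1 rose by 1.43 ± 0.19 and embryonic myosin (MYH3) by 1.05 ± 0.11. Slow troponin C (TNNC1) rose by 2.79 ± 0.38, with a dasatinib step alone of -3.18. Members that fell included slow troponin I (TNNI1, -1.41 ± 0.09), the embryonic light chain MYL4 (-1.47 ± 0.10) and DES (-0.65 ± 0.09).

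Genes of the PAX3-FOXO1 programme, the fusion factor of alveolar rhabdomyosarcoma, fell in 12 of 24 cases and rose in 9, with a median of -0.46. Without dasatinib 12 rose and 10 fell, with a median of 0.15. The median of the difference itself was -0.17, and it was called lower for 9 and higher for 3. The receptor kinase FGFR4 fell by 1.30 ± 0.07 on dasatinib and by 1.31 ± 0.07 without it, a difference of 0.00 ± 0.10. ALK, another receptor kinase, fell by 1.19 ± 0.08 and by 1.99 ± 0.09. MYCN, a MYC family factor, fell by 0.74 ± 0.06 and by 0.25 ± 0.06. ABAT, which breaks down GABA, fell by 1.73 ± 0.08, and GREM1, an inhibitor of bone morphogenetic proteins, rose by 4.59 ± 0.11. MYC fell by 0.51 ± 0.07.

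Markers of other cell types were counted against the 26.6% of all genes that rose and the 16.5% that fell. Fibroblast markers rose in 11 of 14 cases (1 lower), endothelial in 8 of 12 (1 lower), epithelial in 11 of 12 (0 lower), neural in 10 of 16 (2 lower), immune in 7 of 16 (1 lower) and adipocyte and liver markers in 2 of 10 (0 lower). Of the epithelial markers 8 were not measurable with dasatinib, among them CDH1 and EPCAM, as were 9 neural, 8 immune and 9 adipocyte and liver markers. Members not measurable with dasatinib gave 5 fibroblast, 2 endothelial, 7 epithelial, 7 neural, 3 immune and 2 adipocyte and liver rises. The floor fixes the direction of these rises, so the share over all genes is no like measure for them. Medians over measurable members were 1.11 for fibroblast, 1.70 for endothelial, 1.28 for epithelial, -0.18 for neural and 0.87 for immune markers. The leukocyte gene PTPRC was not measurable with dasatinib or with the combination, and neither were TYROBP, LYZ and MS4A1. PECAM1, an endothelial adhesion protein, rose by 1.67 ± 0.08 without dasatinib and had a change of -0.27 ± 0.08 on it, a difference of -1.94 ± 0.11 (adjusted p 2.0e-66). Of 13 mitochondrially encoded transcripts 3 rose and 5 fell, with a median of 0.03. The part of other cell types in the results was not tested.

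Single genes with the largest differences belonged to no one list. TXNIP, which binds thioredoxin and curbs glucose uptake (chromosome 1, 145992435 to 145996579), rose by 3.81 ± 0.09 without dasatinib and had a change of 0.17 ± 0.09 on it, a difference of -3.65 ± 0.13 (adjusted p 5.0e-173). The dasatinib step alone was 3.47 for this gene. DMBT1, a secreted scavenger receptor protein, rose by 2.41 ± 0.09 without dasatinib and fell by 0.49 ± 0.08 on it, with a dasatinib step of 2.47. COX10, which makes the haem of cytochrome c oxidase (chromosome 17, 14069504 to 14208677), showed the opposite. It rose by 1.97 ± 0.07 on dasatinib and changed by -0.09 ± 0.08 without it, with a dasatinib step of -0.06 and a difference of 2.06 ± 0.10 (adjusted p 7.4e-86). SCN9A, a sodium channel, rose by 0.70 ± 0.20 on dasatinib and fell by 1.69 ± 0.19 without it. CHRNE, the adult subunit of the muscle acetylcholine receptor, rose by 7.99 ± 0.73 and by 5.19 ± 0.36.

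Every change on dasatinib and every difference of changes rests on the dasatinib table belonging to the same fit as the other 3, which the sums of the comparisons cannot show. In 7093 genes not measurable in DMSO and dasatinib, the group standard errors solved for the pair differed by a median of 4.69e-05 log2.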

How the data were processed

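Poly(A)-selected, stranded RNA-seq libraries of 24 cultures (8 groups of 3) were made, per the labels' protocols. Per the submitters' processing notes, the tools were DESeq2 1.16.1 with DESeq, featureCounts 1.5.1, HISAT2 2.1.0 and Trim Galore 0.4.2, and the build was GRCh38; their roles, the model and any filter were not stated in the labels. The signal deposited by the authors, baseMean, is read as the mean normalised count per gene. Beside it the authors deposited the standard error of each log2 fold change and a score per gene, the Wald statistic. The p-value and its adjusted value are those the authors deposited.

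Log2 changes were computed as statistic times standard error. Group variances were solved from the 4 squared standard errors, taking the tables as 1 fit (combination minus SGI-110 matched the deposited comparison within 0.00152 log2; 1 gene had a negative group variance). Wald p-values for combination minus dasatinib, and for its difference from SGI-110 minus DMSO, were adjusted by Benjamini-Hochberg (scipy 1.17.1, pandas 2.3.3) after tests on simulated data. Replicates are separate cultures of a line. The p-values rest on the authors' standard errors, from a model that is not stated and appears to cover all 24 libraries. The spread they measure is therefore not only that among the 3 cultures of each group compared. Depth per library is unknown, and no share or count interval is given.

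Genes named were, at a mean normalised count of at least 100, the 12 largest rises and 12 largest falls. To these were added 10 genes not measurable with dasatinib, the 10 highest and 10 lowest differences, up to 5 members a list with the smallest p, members against the majority, and a short set of drug targets and markers. Other members are given to describe a list and were picked after values were seen. Members and the 39 lists (811 of 835 distinct genes found) were chosen with earlier results of these data known. Gene positions and promoters are RefSeq, GRCh38.p14. Names written as dates (27) were left as they are. The edgeR and DESeq2 count fits planned as alternatives need values per library and were not run. Some further genes named by the rule are not reported here.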

Additional observations from a re-analysis of the deposited data

Results flagged for a closer look

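The difference between the SGI-110 changes on dasatinib and without it, tested for each gene, was called for the following named genes and drug targets. In all genes it was called for 1804 higher and 2517 lower.

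The 10 highest differences (log2) were those of KLHDC7B (2.92), CHRNE (2.79), GP6 (2.79), SCN9A (2.39), BEST1 (2.35), COX10 (2.06), AKNA (2.04), STUM (1.99), CMYA5 (1.97) and CFAP61 (1.85). The change on dasatinib was -0.09 for KLHDC7B, -1.30 for BEST1 and -0.25 for AKNA, against -3.00, -3.66 and -2.28 without it. For GP6, CHRNE, STUM and CMYA5 both changes were rises, and the rise was larger on dasatinib. Their dasatinib steps alone were -1.70, -2.36, -2.03 and -0.90, and the combination stood at 8.19, 5.63, 2.42 and 6.02 against DMSO, beside 7.10, 5.19, 2.45 and 4.94 for SGI-110 alone. CMYA5, a muscle costamere protein, rose by 6.91 on dasatinib and by 4.94 without it. CFAP61, a cilium protein, rose by 0.70 on dasatinib, a call lost with the larger variance. COX10 is the one whose SGI-110 change without dasatinib and dasatinib step were both under 0.1 log2 in size.

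The 10 lowest differences were those of DNAH3 (-4.65), TXNIP (-3.65), MYLK4 (-3.25), ART3 (-3.08), SORL1 (-2.94), DMBT1 (-2.90), CACNA1H (-2.78), SLC38A3 (-2.75), JUP (-2.64) and SPTB (-2.63). DNAH3, an axonemal dynein, rose by 6.01 ± 0.39 on dasatinib and by 10.65 ± 0.84 without it. MYLK4 and ART3 rose by 2.73 and 2.42 without dasatinib and fell by 0.52 and 0.66 on it, calls lost with the larger variance. For 9 of these 10 genes the dasatinib step alone was above 1 log2, and CACNA1H had 0.60. The dasatinib step enters the difference with a minus sign. Ranking by the difference therefore favours high steps here and low steps among the highest differences.

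In a set of 24 drug targets and markers, differences were called for 11 and not for the other 13, among them MYOD1, ABL1, SRC and DCK. The 11 were DNMT1 (0.24), DNMT3A (-0.49), DNMT3B (-1.07), UHRF1 (-0.32), YES1 (-0.32), FYN (-0.42), LYN (-0.50), ABL2 (-0.36), MYOG (-0.44), CDKN1A (-0.53) and ISG15 (-1.09).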

How the results depend on the processing

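No paired analysis was possible because the tables hold comparisons and no values per library; for the same reason a replicate block, fits without each replicate in turn and count fits were not run. On dasatinib 7895 genes were higher and 4904 lower. Higher genes numbered 4151 at a mean normalised count of at least 50, 5179 with a log2 change of at least 1, and 4804 with the larger variance, which sums the 2 squared standard errors against DMSO. Lower genes numbered 690 at a change of at least 1. The higher share of calls was 61.7% in the main setting, 46.9% at a mean of at least 50 and 88.2% at a change of at least 1. The difference of changes was called higher for 306 genes and lower for 506 at a size of at least 1, and for 1026 and 1622 under Benjamini-Yekutieli. Genes shared in direction with SGI-110 alone numbered 9448, and 6127 at a mean of at least 50. The remaining counts, under a threshold of 0.01, other sets of genes adjusted over, or centring on the median gene, were within 1.5 times. Of 339 named genes none reversed; 36 lost their call on dasatinib with the larger variance, and with centring 8 lost it and TXNIP gained it. Of 39 list medians, 18 moved by more than the members' median standard error when members at the floor were included, 9 at a mean of at least 50 and 0 with centring. Causes were not tested. Precision rests on the deposited standard errors, with a median of 0.08 log2 on dasatinib and 0.12 for the difference at a mean of at least 100.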

Other observations

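The genes beside COX10 on chromosome 17 were looked up after its value was seen. HS3ST3B1, a heparan sulfate sulfotransferase, rose by 1.25 ± 0.13 on dasatinib and changed by 0.15 ± 0.15 without it, a difference of 1.10 ± 0.20. The antisense transcript COX10-AS1 changed by 0.19 ± 0.10 on dasatinib, which was not called, and by -0.70 ± 0.10 without it, a difference of 0.89 ± 0.14. The libraries were stranded, but the strand setting of the counting is not given in the sources used here, so reads of COX10 and COX10-AS1 may not be fully told apart. ARRDC4, an arrestin of the same family as TXNIP, was also looked up afterwards. It rose by 1.38 ± 0.19 on dasatinib and by 2.96 ± 0.29 without it, a difference of -1.58 ± 0.35.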
